A study of Mus musculus with 4 samples.

Results

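This account covers 43 genes of glucose breakdown, lactate handling and the response to low oxygen in mouse embryonic stem cells (ESCs) depleted of Ythdf2. The genes were named by symbol, and all 43 were found among the 49997 genes of the count table. They were grouped as 27 genes of glycolysis and lactate and 16 genes of the hypoxia response. 41 of them passed the filter on low counts, and Car9 and Adm did not. The list was chosen from known function, but also chosen on earlier results of the same contrast, so the differences between the groups are given for these genes as a description, with no test and as support for nothing.

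RNA-seq was performed on E14 ESCs, a pluripotent mouse line, which carried a lentiviral short hairpin RNA. The control group, shScramble, carried a scrambled hairpin and the other group, shYthdf2, a hairpin against the m6A reader Ythdf2. The study describes its knockdown cells as puromycin-selected stable lines with a tdTomato reporter driven by the MERVL promoter and a TagRFP marker on the vector, grown on gelatin with serum replacement and leukemia inhibitory factor. Each group held 2 libraries, which the study calls independent biological replicates. Of the hairpins against Ythdf2 that the study lists, the labels do not say which was used, and the oxygen level of the cultures and their density when RNA was taken are not given in the sources used here. Ythdf2 itself was at 93.4 and 87.6 CPM (TMM-scaled counts per library total of 1000000) in shScramble and at 31.8 and 30.2 CPM in shYthdf2, a fall to 34.2% of the control level (log2 fold change -1.55, SE 0.11, edgeR adjusted p = 0.00069).

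Glycolysis breaks glucose down to pyruvate in the cytosol, and lactate dehydrogenase (LDH) interconverts pyruvate and lactate. Glucose enters through GLUT transporters, lactate crosses the membrane through monocarboxylate transporters (MCTs) held in place by a partner protein, and pyruvate dehydrogenase (PDH) kinases restrain the entry of pyruvate into the mitochondrial cycle. ESCs are known for a high rate of glycolysis. Many of these genes are also targets of the hypoxia-inducible factors (HIFs), in which an alpha subunit such as HIF1A or EPAS1 pairs with ARNT. When oxygen is plentiful, EGLN enzymes hydroxylate the alpha subunit and VHL marks it for destruction, and when oxygen is scarce the pair binds hypoxia response elements, whose core reads ACGTG or GCGTG.

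To show the sequence in front of these genes, promoter windows from 250 bases before to 50 bases after the annotated start were taken from RefSeq (GRCm38.p6). A window was found for 39 of the 43 genes, and Slc2a3, Ndufa4l2, Epas1 and Bsg had none. The core ACGTG, searched on both strands, lay in 53.6% of the 56 windows of the members (30 windows), against 24.1% of the windows of all genes tested and 19.6% of all promoters. GCGTG lay in 60.7% of the members' windows, in 46.5% of those of genes tested and in 32.4% of all. Since the genes were picked partly as HIF targets, these shares describe the list, and a match is only a run of letters. CACGTG, the E-box core, holds ACGTG on each strand and lay in 12.5% of the members' windows and in 9.39% of those of genes tested.

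Windows of 6 genes are printed 5′ to 3′ on the gene's strand, each with a single annotated start and chosen after the values were seen. They are 4 genes with ACGTG that behaved unlike each other below, followed by Ldhb and Emb, the pair with the largest positive fold changes. Capitals mark each ACGTG or GCGTG core on either strand, and adjoining matches form 1 run of capitals.
Slc16a3 promoter, chr11:120948817-120949116, plus strand: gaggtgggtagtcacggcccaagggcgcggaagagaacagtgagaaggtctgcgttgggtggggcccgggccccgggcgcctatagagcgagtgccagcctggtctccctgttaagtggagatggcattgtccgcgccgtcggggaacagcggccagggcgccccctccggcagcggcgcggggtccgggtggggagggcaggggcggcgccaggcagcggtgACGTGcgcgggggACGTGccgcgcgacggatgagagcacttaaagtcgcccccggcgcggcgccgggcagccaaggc
Bnip3 promoter, chr7:138909457-138909756, minus strand: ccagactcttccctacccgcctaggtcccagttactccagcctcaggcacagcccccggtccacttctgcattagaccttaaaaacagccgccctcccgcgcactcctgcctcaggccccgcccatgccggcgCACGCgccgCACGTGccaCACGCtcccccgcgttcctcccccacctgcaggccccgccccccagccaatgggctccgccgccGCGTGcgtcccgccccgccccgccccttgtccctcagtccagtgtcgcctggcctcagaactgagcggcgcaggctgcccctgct
Slc2a1 promoter, chr4:119108495-119108794, plus strand: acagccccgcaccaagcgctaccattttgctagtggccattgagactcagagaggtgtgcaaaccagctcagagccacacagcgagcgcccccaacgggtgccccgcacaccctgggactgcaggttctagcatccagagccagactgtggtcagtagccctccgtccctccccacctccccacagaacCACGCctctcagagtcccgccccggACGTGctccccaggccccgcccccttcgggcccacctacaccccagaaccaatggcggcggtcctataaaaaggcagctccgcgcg
Pgk1 promoter, chrX:106186850-106187149, plus strand: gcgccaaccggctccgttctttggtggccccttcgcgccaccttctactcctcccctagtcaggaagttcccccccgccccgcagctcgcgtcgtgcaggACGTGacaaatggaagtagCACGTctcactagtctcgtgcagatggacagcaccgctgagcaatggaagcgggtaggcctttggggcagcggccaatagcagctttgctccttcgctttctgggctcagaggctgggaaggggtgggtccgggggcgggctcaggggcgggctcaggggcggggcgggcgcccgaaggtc
Ldhb promoter, chr6:142507908-142508207, minus strand: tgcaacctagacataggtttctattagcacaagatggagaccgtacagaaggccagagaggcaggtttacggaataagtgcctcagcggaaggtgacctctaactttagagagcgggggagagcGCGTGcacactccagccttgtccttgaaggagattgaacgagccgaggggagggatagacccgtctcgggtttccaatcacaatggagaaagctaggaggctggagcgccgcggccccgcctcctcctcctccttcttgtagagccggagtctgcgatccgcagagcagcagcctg
Emb promoter, chr13:117220323-117220622, plus strand: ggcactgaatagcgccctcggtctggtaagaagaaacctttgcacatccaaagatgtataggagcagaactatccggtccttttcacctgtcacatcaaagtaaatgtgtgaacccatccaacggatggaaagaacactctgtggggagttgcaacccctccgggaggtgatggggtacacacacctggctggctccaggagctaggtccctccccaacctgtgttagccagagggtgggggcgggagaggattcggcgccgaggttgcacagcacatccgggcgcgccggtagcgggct
Slc16a3 carried 2 matches of ACGTG close together, Pgk1 carried 2, Slc2a1 carried 1 and Bnip3 a single CACGTG, which counts on both strands. Ldhb had a single GCGTG and no ACGTG, and Emb had neither. ACGTG lay in a window of 26 of the 37 tested members that had one, and the called genes held it on both sides. Ak4, called higher, had a CACGTG in 1 of its 4 windows, and Pfkp, called lower, had no ACGTG.

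Replicate 2 of shScramble stood apart from replicate 1 for these genes, which bears on every difference below. It was the highest of the 4 libraries for 25 of the 41 tested members, or 61.0%, against 27.4% of all genes tested, and it was above replicate 1 for 35 members. The median ratio of replicate 2 over replicate 1 was 0.36 on the log2 scale for the members, 0.22 for glycolysis and lactate and 0.69 for the hypoxia response, where the median over all genes tested was 0.00. The ratio was at least 2-fold for 4 of the 41 tested members (Ndufa4l2, Egln3, Bnip3 and Slc16a3) and for 5.38% of all genes. In shYthdf2, replicate 2 was at least 2-fold above replicate 1 for 1 member, Eno2, and for 5.69% of all genes, and the members' median ratio was -0.02. Fold changes are therefore given with all libraries and without shScramble replicate 2, where the lone control was taken to vary like the shYthdf2 libraries.

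Depth and the labelled cell type were checked once. Total counts ran from 31113006 to 36422510 reads, so that 3 reads, the limit that a count of 0 allows, came to between 0.083 and 0.095 CPM, which covers counting error only. The 7 pluripotency markers, Pou5f1, Sox2 and Nanog among them, summed to between 5238 and 5440 CPM in shScramble and between 4740 and 5174 CPM in shYthdf2. Of 7 fibroblast or feeder markers Dcn had no reads in any library, and the list summed to between 22.3 and 28.4 CPM in shScramble and between 12.8 and 22.5 CPM in shYthdf2. Markers of 2C-like cells, 6 genes, summed to between 31.1 and 51.1 CPM in shScramble and between 74.2 and 221 CPM in shYthdf2, with none at 0, and the 4 neural markers to between 99.3 and 143 CPM and between 166 and 226 CPM. Most of the neural sum was Tubb3, at 115 and 69.2 CPM in shScramble and 179 and 126 CPM in shYthdf2 (log2 fold change 0.73, edgeR adjusted p = 0.1). Nes was higher (0.79, edgeR adjusted p = 0.035). Sox1 and Pax6 had overlapping groups (0.10 and 0.56, edgeR adjusted p = 0.87 and 0.36). The primitive endoderm sums ran from 13.97 to 14.85 CPM in shScramble and from 11.9 to 19.2 CPM in shYthdf2, those of trophectoderm from 83.6 to 90.6 CPM and from 86.3 to 112 CPM, and those of mesoderm from 5.03 to 5.17 CPM and from 4.39 to 6.58 CPM. Most of the trophectoderm sum was Tfap2c, at 67.7 and 77.9 CPM in shScramble and 103 and 79.5 CPM in shYthdf2 (log2 fold change 0.33, edgeR adjusted p = 0.23). Cdx2, on 8 and 6 reads in shScramble and 14 and 12 in shYthdf2, had 0.84 (edgeR adjusted p = 0.56). Gata3, Krt8 and Krt18 had log2 fold changes of -0.97, -0.82 and -1.12 (edgeR adjusted p = 0.11, 0.13 and 0.11). The groups did not overlap for any of these trophectoderm markers, which lay on both sides, and Elf5 was not tested. The part of these cell types in the results below was not tested, and in bulk RNA fewer cells of a type and less RNA per cell cannot be told apart.

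As a whole, the glycolytic and hypoxia genes did not move one way. In the fit over all 18341 genes tested (edgeR's quasi-likelihood test, adjusted p under 0.05, hereafter called, a description only for the members), 3 of the 41 members were called higher in shYthdf2, Ldhb, Emb and Ak4, where 2.43% of all genes were. A further 5 were called lower, Slc2a1, Pfkp, Slc16a3, Ndufa4l2 and Vegfa, where 1.49% of all genes were, and 33 were not called. Nothing is read from these shares, since this contrast was known when the list was made. Over the members the median of the log2 fold changes was -0.19, against 0.00 over all genes tested, with 15 members above 0 and 26 below. Without shScramble replicate 2 the members' median was -0.08, 3 members were called higher and 2 lower, Slc16a3 and Vegfa. The hypoxia genes had a median of -0.48 over 14 tested and -0.23 without that library, and the glycolysis and lactate genes -0.09 and 0.02. Both shYthdf2 libraries lay above both shScramble libraries for 6 members and below them for 16, and such separation was seen in 26.2% and 25.5% of all genes tested.

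**Figure D1:**
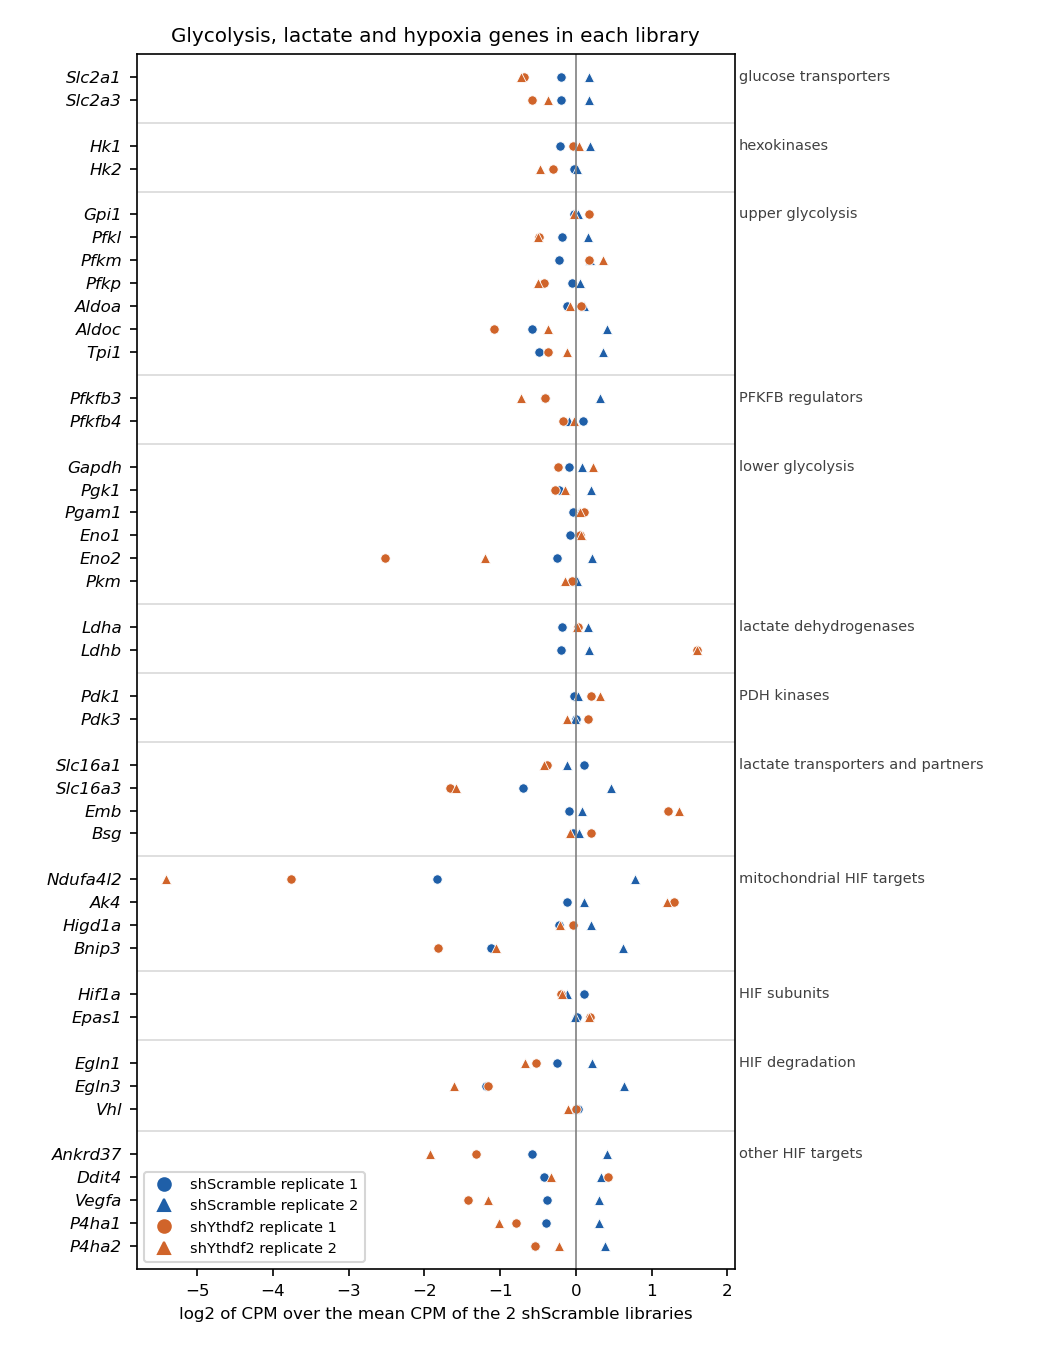
Level of the 41 tested genes in each of the 4 libraries, as the log2 of CPM over the mean CPM of the 2 shScramble libraries (0, vertical line), with genes grouped by role. Circles are replicate 1 and triangles replicate 2, blue for shScramble and orange for shYthdf2. Ldhb, Emb and Ak4 are the genes whose orange points lie more than 1 to the right of the line, and for 11 of 14 hypoxia genes the blue triangle lies to the right of the blue circle.

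The summed level of the pathway's enzymes was nearly equal in both groups. The 17 enzymes from hexokinase to LDH summed to 7050 and 7780 CPM in shScramble and to 7289 and 7058 CPM in shYthdf2, so the groups overlapped. All 43 members took between 0.957% and 1.10% of reads, with the highest share in shScramble replicate 2. Levels between genes can be compared only per length, as RPKM, the CPM divided by the exonic length in kilobases. On that scale Pkm led with a mean of 529 RPKM over the 4 libraries, followed by Eno1 with 438, Aldoa with 380 and Pgam1 with 332, but reads placed at several positions were not counted, and 31.9% and 37.9% of the 150-base stretches of Eno1 and Pgam1 also occur in transcripts of other genes, against 2.16% for Pkm and 0 for Aldoa, so the order of these 4 is uncertain. The low end was held by Pfkfb4, Eno2, Adm and Car9, each under 1 RPKM in every library.

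**Figure D2:**
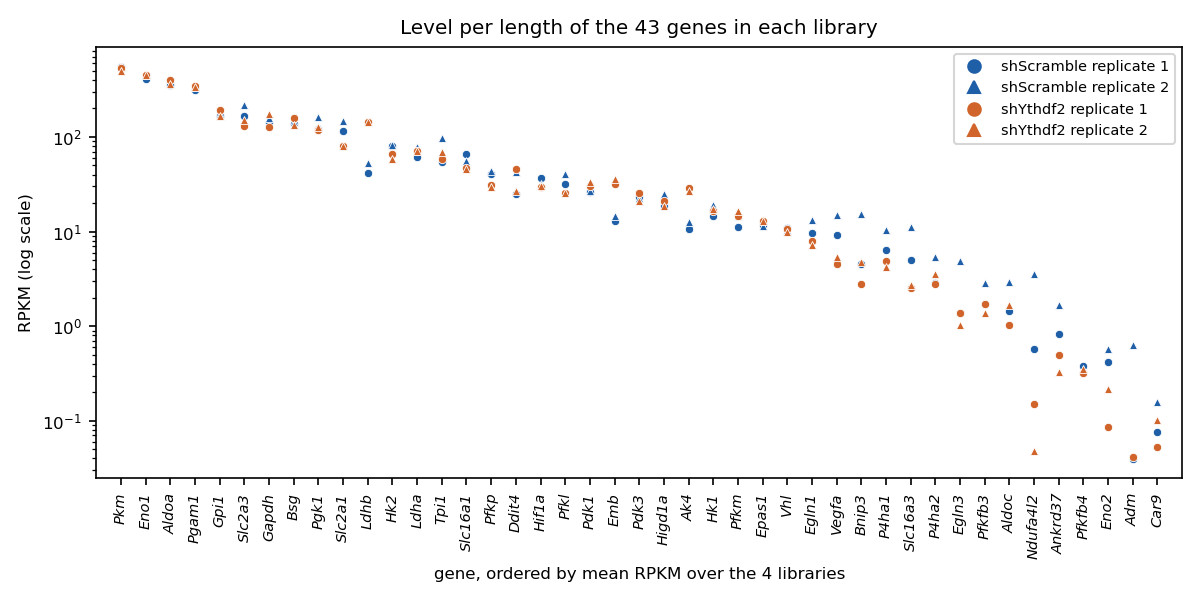
Level per length of the 43 genes in each library, in RPKM on a log axis, with genes ordered by their mean over the 4 libraries. Colors and symbols mark group and replicate, and 1 point is not drawn because Adm had 0 reads in shYthdf2 replicate 2. The levels span from 529 RPKM for Pkm to under 1 RPKM, and the spread between libraries is widest among the low genes on the right.

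Both glucose carriers among the members were at lower levels in shYthdf2, Slc2a1 called and Slc2a3 not. Slc2a1 encodes GLUT1, the widely used glucose carrier and a HIF target, and lies on chromosome 4 from 119108745 to 119137330 (mm10). It was at 306 and 393 CPM in shScramble and at 217 and 212 CPM in shYthdf2. Its groups did not overlap, and the log2 fold change was -0.70 (SE 0.13), or -0.51 without shScramble replicate 2, a setting in which it was not called. Slc2a3, which encodes the high-affinity carrier GLUT3, was the more abundant of the pair per length, with a mean of 166 RPKM against 105 RPKM for Slc2a1. It was at 946 and 1231 CPM in shScramble and at 727 and 845 CPM in shYthdf2, a log2 fold change of -0.47 (SE 0.14) that was not called and that came to -0.27 without replicate 2. Both shYthdf2 libraries therefore lay below both shScramble libraries for both carriers, and in shScramble replicate 2 both were about equally above replicate 1, by a ratio of 1.29 and 1.30.

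Hexokinases trap glucose in the cell by phosphorylating it. Hk2, the form inducible by HIF, was at 449 and 462 CPM in shScramble and at 370 and 327 CPM in shYthdf2. Its groups did not overlap and its log2 fold change was -0.39 (SE 0.11), not called, and it barely depended on the control that was used, with -0.37 without shScramble replicate 2 and -0.40 without replicate 1. Hk1, the housekeeping form, had a log2 fold change of 0.01 (SE 0.14) and overlapping groups. Counted per exonic base, Hk1 made up 15.6% and 19.1% of the hexokinase reads in shScramble and 20.2% and 23.2% in shYthdf2.

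Of the enzymes of upper glycolysis, which turn hexose into triose phosphates, only the platelet-type phosphofructokinase Pfkp was called. It lies on chromosome 13 from 6579874 to 6649060. It was at 474 and 510 CPM in shScramble and at 368 and 349 CPM in shYthdf2, a log2 fold change of -0.46 (SE 0.10) and -0.40 without shScramble replicate 2, where it was no longer called. Transcripts of the neighbouring gene Pitrm1 share 12.9% of its 150-base stretches. Pfkl, the liver-type form, was also lower in both shYthdf2 libraries (log2 fold change -0.49, SE 0.13, not called), while Pfkm, the muscle-type form, was at 40.1 and 53.2 CPM in shScramble and at 52.4 and 59.8 CPM in shYthdf2, with overlapping groups (0.27, SE 0.15). Per exonic base, Pfkm thus made up 13.4% and 15.0% of phosphofructokinase reads in shScramble and 20.4% and 23.2% in shYthdf2. The height of these shares rests on 3602 exonic bases for Pfkm, 4076 for Pfkl and 11760 for Pfkp.

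Aldolase A, Aldoa, was the most abundant gene of upper glycolysis per length and did not separate the groups, at 852 and 989 CPM in shScramble and 962 and 870 CPM in shYthdf2 (log2 fold change -0.01, SE 0.11). Its minor isozyme Aldoc had the largest fold in this step and was at 4.19 and 8.38 CPM in shScramble and at 2.98 and 4.86 CPM in shYthdf2 (-0.68, SE 0.37, not called). That fold rested on the high library, since it came to -0.09 without shScramble replicate 2. Tpi1, triose phosphate isomerase, changed sign without that library, from -0.24 (SE 0.22) to 0.24, with 79.4 and 142 CPM in shScramble against 85.6 and 102 CPM in shYthdf2. Gpi1, glucose phosphate isomerase, had a log2 fold change of 0.08 (SE 0.11).

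PFKFB enzymes set the level of fructose 2,6-bisphosphate, the activator of phosphofructokinase. Pfkfb3 was at 11.2 and 18.5 CPM in shScramble and at 11.1 and 9.0 CPM in shYthdf2, so that shScramble replicate 1 lay level with shYthdf2 replicate 1. Its log2 fold change was -0.56 (SE 0.25), not called, and -0.15 without shScramble replicate 2. Pfkfb4 was at 3.77 to 4.5 CPM in the 4 libraries (log2 fold change -0.09, SE 0.27).

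Lower glycolysis, the steps that yield ATP and pyruvate, was flat for its abundant enzymes. Pyruvate kinase, Pkm, was at 2203 and 2252 CPM in shScramble and at 2156 and 2024 CPM in shYthdf2, a log2 fold change of -0.09 (SE 0.10). Gapdh, Pgk1, Pgam1 and Eno1 ranged from -0.21 to 0.08, with SEs from 0.10 to 0.15, and none was called. For Gapdh and Pgk1, 49.7% and 66.1% of their 150-base stretches of transcript also occur in transcripts of other genes such as Gapdh-ps15 and Pgk1-rs7, and reads placed at several positions were not counted, so their levels are uncertain. Pgk1, whose promoter window is printed above, stood at 221 and 297 CPM in shScramble and 215 and 234 CPM in shYthdf2. Eno2, the neuronal enolase, had the largest fold of this step but few reads, 51 and 61 in shScramble and 10 and 26 in shYthdf2. Its groups did not overlap (log2 fold change -1.70, SE 0.53, not called), and the value was -1.46 without shScramble replicate 2.

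Ldhb had the largest positive fold change among the members. It encodes the heart-type LDH subunit and lies on chromosome 6 from 142490249 to 142507957. It was at 53.5 and 69.1 CPM in shScramble and at 186 and 186 CPM in shYthdf2. The groups were far apart, with both shYthdf2 libraries alike, and the fold was 3.03 (log2 fold change 1.60, SE 0.13). It was larger, 1.80, without shScramble replicate 2 and 1.43 without replicate 1. Ldha, which encodes the muscle-type subunit and is a HIF target, was at 327 and 415 CPM in shScramble and at 377 and 375 CPM in shYthdf2. Its groups overlapped (0.02, SE 0.12). A promoter window of Ldha held 5 matches of ACGTG, in which each of 2 CACGTG counts on both strands.

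Of the LDH pair, Ldhb separated the groups and Ldha did not. Per exonic base, Ldhb took 40.2% and 40.6% of LDH reads in shScramble (95% Wilson intervals 39.0% to 41.3% and 39.5% to 41.7%) and 66.9% and 67.0% in shYthdf2 (66.2% to 67.5% and 66.3% to 67.6%). The means of this share were 40.4% ± 0.30 and 66.9% ± 0.09 (SD, n = 2). Its height rests on 1304 exonic bases for Ldhb and 5342 for Ldha. By reads alone, Ldhb had 1927 of 13693 and 2178 of 15245 LDH reads in shScramble. In shYthdf2 it had 6351 of 19241 and 6656 of 20087, so Ldha held most LDH reads in every library. Although shScramble replicate 2 had more of both transcripts than replicate 1, by a ratio of 1.29 for Ldhb and 1.27 for Ldha, the share was nearly the same in both.

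**Figure D3:**
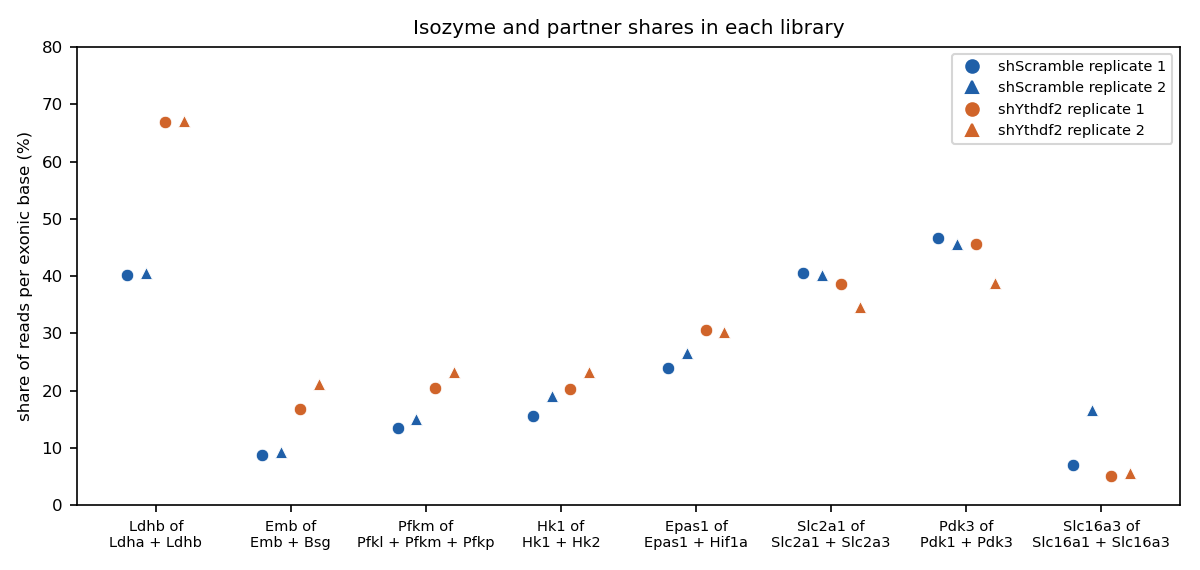
Share of a gene in the reads of its isozyme or partner group, in % of reads per exonic base, for 8 genes in each of the 4 libraries. How high a share lies depends on the annotated exonic lengths, and it is not a share of plain reads. Circles are replicate 1 and triangles replicate 2, blue for shScramble and orange for shYthdf2, and the axis starts at 0. The Ldhb share lies near 40% in both shScramble libraries and near 67% in both shYthdf2 libraries, while the Slc16a3 share is set apart mainly by shScramble replicate 2.

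Neither of the PDH kinases among the members was called. Pdk1, the HIF-inducible kinase, was at 169 and 175 CPM in shScramble and at 197 and 214 CPM in shYthdf2. This slightly higher level without overlap gave a log2 fold change of 0.25 (SE 0.10), not called, and 0.28 without shScramble replicate 2. For Pdk3 it was 0.03 (SE 0.13). Its share of Pdk1 and Pdk3 reads per exonic base was 46.7% and 45.6% in shScramble and 45.6% and 38.8% in shYthdf2.

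Among lactate transporters and their partners, a transporter was lower and a partner higher. Slc16a3 encodes MCT4, the HIF-inducible lactate exporter, and lies on chromosome 11 from 120948484 to 120959000. It was at 17.6 and 39.3 CPM in shScramble and at 8.98 and 9.47 CPM in shYthdf2. Both shYthdf2 libraries were alike and lay below both controls, which differed from each other by a ratio of 2.23. The log2 fold change was -1.62 (SE 0.31), or -0.93 without shScramble replicate 2 and -2.09 without replicate 1. With limma-voom Slc16a3 was not called. Its exons overlap those of Csnk1d over 10.6% of their length, and counting ignored strand.

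Slc16a1, which encodes the more abundant carrier MCT1, was at 292 and 249 CPM in shScramble and at 208 and 203 CPM in shYthdf2, so the groups did not overlap (-0.40, SE 0.11, not called). Here shScramble replicate 2 was the lower of the controls, and the log2 fold change was -0.51 without it. Slc16a3 took 7.07% and 16.6% of the reads of these carriers per exonic base in shScramble and 5.15% and 5.56% in shYthdf2.

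Emb, embigin, is a partner of the monocarboxylate transporters and lies on chromosome 13 from 117220573 to 117274415. It was at 34.0 and 38.3 CPM in shScramble and at 84.2 and 93.0 CPM in shYthdf2. The groups were well separated, with a fold of 2.45 (log2 fold change 1.29, SE 0.12) and values of 1.38 and 1.21 without shScramble replicate 2 and replicate 1. The gene model Gm17509 shares 17.5% of its 150-base stretches of transcript. Bsg, basigin, the main partner and the most abundant gene of this group per length, was at 238 and 251 CPM in shScramble and at 280 and 232 CPM in shYthdf2 (0.06, SE 0.12). The groups overlapped, and Emb took 8.72% and 9.24% of partner reads per exonic base in shScramble and 16.7% and 21.1% in shYthdf2.

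HIF targets that act at mitochondria went in opposite directions. Ak4, adenylate kinase 4 of the mitochondrial matrix, was at 87.1 and 102 CPM in shScramble and at 234 and 218 CPM in shYthdf2. It lies on chromosome 4 from 101416478 to 101467771. The groups were well apart, with a fold of 2.38 (log2 fold change 1.25, SE 0.12) and 1.37 without shScramble replicate 2. It was the only hypoxia gene of the 14 tested that was called higher.

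Ndufa4l2, a HIF target related to a respiratory chain subunit, had few reads, 24 and 129 in shScramble and 6 and 2 in shYthdf2. Its shScramble libraries differed from each other by a ratio of 6.14, and both shYthdf2 libraries lay below both. The fitted log2 fold change was -4.32 (SE 0.93), or -2.50 without shScramble replicate 2, where it was not called, and -5.11 without replicate 1. With limma-voom Ndufa4l2 was not called. Bnip3, which directs damaged mitochondria to autophagy, was at 8.05 and 27.0 CPM in shScramble and at 4.94 and 8.41 CPM in shYthdf2. Only the second shScramble library was high, and the log2 fold change of -1.39 (SE 0.47, not called) came to -0.27 without it. Higd1a, a HIF target of the inner mitochondrial membrane and the most abundant gene of this group per length over the 4 libraries, was at 36.5 and 48.8 CPM in shScramble and at 41.4 and 36.9 CPM in shYthdf2 (-0.12, SE 0.16).

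The HIF alpha subunits were nearly level at the RNA level. Hif1a was at 183 and 157 CPM in shScramble and at 148 and 150 CPM in shYthdf2, and the log2 fold change was -0.19 (SE 0.11). Epas1, which encodes HIF2A, was at 63.3 and 62.3 CPM in shScramble and at 71.3 and 71.0 CPM in shYthdf2 (0.18, SE 0.11). Neither was called, although the groups did not overlap for either. Shares per exonic base followed, with Epas1 at 24.0% and 26.6% of the pair's reads in shScramble and 30.6% and 30.3% in shYthdf2. HIF alpha is controlled mainly as protein, which was not measured here.

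Of the genes that degrade HIF alpha, Vhl was the most abundant per length by its mean over the 4 libraries. In shScramble alone Egln1 led, with a mean of 11.5 RPKM against 10.6 RPKM for Vhl. Vhl was flat, at 29.7 and 28.7 CPM in shScramble and at 29.2 and 27.2 CPM in shYthdf2 (-0.05, SE 0.14). Egln1, the main oxygen sensor PHD2, was lower in both shYthdf2 libraries (-0.59, SE 0.17, not called) and at -0.34 without shScramble replicate 2. Egln3, which encodes PHD3 and is itself a strong HIF target, was at 3.67 and 13.0 CPM in shScramble and at 3.71 and 2.74 CPM in shYthdf2. As for Bnip3, a single library was high, and the log2 fold change of -1.36 (SE 0.49, not called) came to -0.19 without it.

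Among the other HIF targets, Vegfa, the growth factor of blood vessels, was the only one called. It lies on chromosome 17 from 46016993 to 46032377 and was at 38.8 and 62.2 CPM in shScramble and at 18.8 and 22.5 CPM in shYthdf2. Both shYthdf2 libraries lay below both controls, and the level was 41.0% of shScramble (log2 fold change -1.29, SE 0.21). It was -0.91 without shScramble replicate 2 and -1.59 without replicate 1. Ankrd37, an ankyrin-repeat gene with 2 matches of ACGTG in its promoter window, had the largest fold of this group on 67 and 116 reads in shScramble and 38 and 26 reads in shYthdf2 (-1.59, SE 0.45, not called), and it was at -1.02 without shScramble replicate 2.

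P4ha1, a collagen prolyl hydroxylase subunit, was at 27.1 and 44.2 CPM in shScramble and at 20.5 and 17.6 CPM in shYthdf2. It had a log2 fold change of -0.90 (SE 0.22), not called, and -0.51 without shScramble replicate 2. P4ha2, its paralogue, had -0.37 (SE 0.30), which turned to 0.16 without that library. Ddit4, the stress-induced inhibitor of mTORC1 and the most abundant gene of this group per length, was at 42.3 and 71.2 CPM in shScramble and at 76.2 and 45.3 CPM in shYthdf2, so the replicates of both groups differed more than the groups did (0.10, SE 0.26). Of the genes that were not tested, Car9, a carbonic anhydrase used as a marker of hypoxia, had 6 and 11 reads in shScramble and 4 and 8 in shYthdf2. Adm, the peptide adrenomedullin, had 2 and 28 reads in shScramble and 2 and 0 in shYthdf2. Nearly all reads of Adm thus came from shScramble replicate 2.

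**Figure D4:**
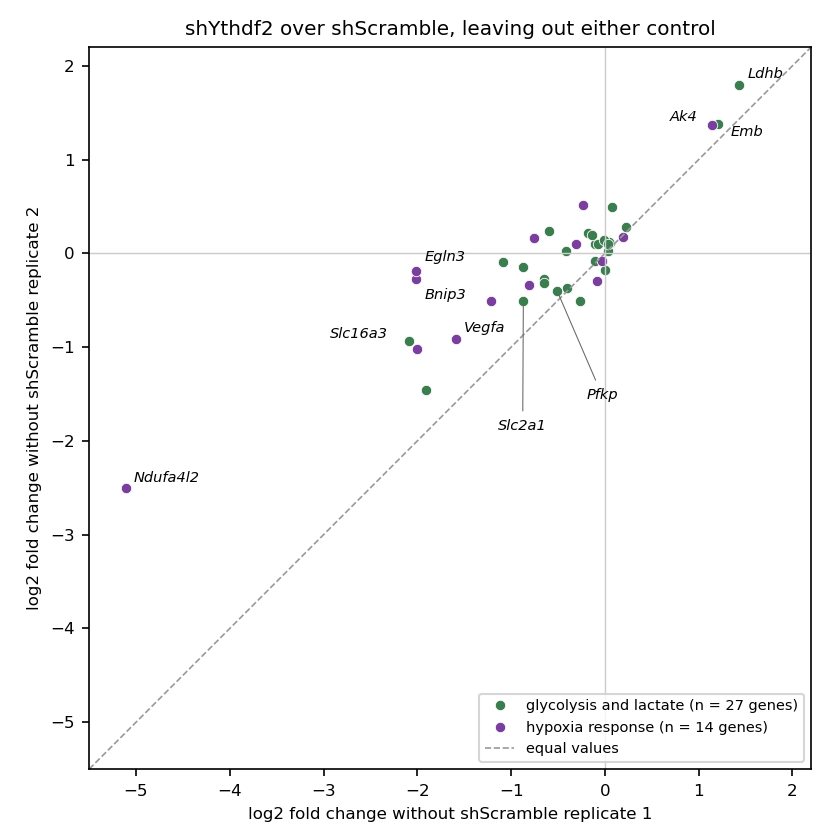
Log2 fold change of shYthdf2 over shScramble for the 41 tested genes without shScramble replicate 1 (horizontal axis) and without shScramble replicate 2 (vertical axis), with green for glycolysis and lactate and purple for hypoxia response. Called genes and those more than 1 off the dashed line of equal values are labelled. Ldhb, Emb and Ak4 lie near the line at the upper right, and Bnip3 and Egln3 lie near 0 on the vertical axis and near -2 on the horizontal axis.

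The control that was used bore on the size of the members' differences. The members' median log2 fold change was -0.27 without shScramble replicate 1 and -0.08 without replicate 2. For the hypoxia genes these medians were -0.79 and -0.23. Within the libraries numbered 1 the members' median log2 ratio of shYthdf2 over shScramble was -0.03, and within those numbered 2 it was -0.35. For the hypoxia genes these ratios had medians of -0.15 and -0.77, but here the shYthdf2 library changed as well as the control. The 26 tested members with ACGTG in a promoter window had a median log2 ratio of shScramble replicate 2 over replicate 1 of 0.42 and a median log2 fold change of -0.29. The 11 with windows lacking it had medians of 0.14 and -0.05. Without shScramble replicate 2 the median fold changes came to -0.08 and 0.11. These groups were not tested against each other, and the same split was not made over all genes tested.

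Genes of the same pathways outside the list were looked up from written lists. Of 51 other genes of glucose transport, glycolysis, gluconeogenesis and pyruvate use, 40 were tested, 2 were higher, 1 was lower and 37 did not pass, with a median log2 fold change of -0.06. Of all genes tested, 2.43% were called higher and 1.49% lower, and the lists were not tested as sets. Slc5a1, the sodium-coupled glucose transporter SGLT1, was at 10.4 and 7.62 CPM in shScramble and at 20.6 and 15.3 CPM in shYthdf2 (log2 fold change 1.00, SE 0.22, edgeR adjusted p = 0.041). Fbp2, the muscle fructose bisphosphatase of gluconeogenesis, was at 4.61 and 3.59 CPM in shScramble and at 10.7 and 7.63 CPM in shYthdf2 (1.16, SE 0.26, edgeR adjusted p = 0.043). Both rose without overlap of the groups, but both lost their call without shYthdf2 replicate 1, at log2 fold changes of 0.76 for Slc5a1 and 0.89 for Fbp2. With limma-voom Fbp2 did not pass (adjusted p = 0.0534) and Slc5a1 did (adjusted p = 0.045). The lowest edgeR adjusted p of their other settings, with a replicate block, was 2.2e-06 for Slc5a1 and 3.4e-05 for Fbp2. Pdk4, a further PDH kinase, fell from 7.58 and 10.4 CPM to 3.36 and 3.63 CPM (-1.36, SE 0.26, edgeR adjusted p = 0.024) and passed in every other setting that was run.

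Of 56 other genes of the HIF pathway, 54 were tested, 1 was higher, 1 was lower and 52 did not pass, with a median of -0.02. The shares called over all genes tested were 2.43% and 1.49%. Arnt2, a partner of the HIF alpha subunits related to ARNT, was at 8.97 and 8.89 CPM in shScramble and at 23.6 and 23.1 CPM in shYthdf2. The replicates were nearly equal, and the gene rose (log2 fold change 1.39, SE 0.17, edgeR adjusted p = 0.0046) with values from 1.37 to 1.4 when each library was left out. Loxl2, a lysyl oxidase that crosslinks collagen, fell from 3.17 and 7.05 CPM to 1.02 and 1.56 CPM (-1.97, SE 0.43, edgeR adjusted p = 0.038). Its call was lost without shScramble replicate 2 (-1.29, edgeR adjusted p = 0.107) and with limma-voom (adjusted p = 0.0702), and these were the highest of its other settings, the lowest being 4.2e-07. Among these 54 genes, 12 were at least 2-fold higher in shScramble replicate 2 than in replicate 1, among them Bhlhe40, a HIF-induced repressor, at 8.14 and 34.8 CPM in shScramble and at 5.50 and 6.20 CPM in shYthdf2, and Ccng2, a cyclin-like HIF target, at 10.4 and 24.7 CPM and at 9.54 and 7.88 CPM. That is 12 of 54 genes outside the members' list, beside the 5.38% of all genes tested. Several of the 12 had few reads, such as Bhlhe41 with 4 and 41 and Cox4i2 with 9 and 50 in shScramble replicates 1 and 2. Since this list was also made with earlier results of these data known, the count is a description.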

How the data were processed

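The authors deposited raw read counts of each gene in the 4 libraries, neither normalized nor pooled. Per the processing notes and file headers, reads were trimmed with fastp 0.19.4, aligned to mm10 with HISAT2 2.2.1 and counted with featureCounts 2.0.3 over RefSeq exons. Libraries were poly(A)-selected and dUTP-stranded, but counting used no strand option and counted both reads of a pair, so counts overstate molecules. Intervals and floors cover counting error only. The intervals treat the reads of a pair as separate, so they are too narrow even for that error.

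Samples were grouped by title. The members and gene lists were chosen with earlier results of these data known. Counts were tested with edgeR 4.0.16 in R 4.3.3 (quasi-likelihood F test, two-sided, TMM, filterByExpr with minimum count 10 and total 15, Benjamini-Hochberg over 18341 genes). The biological coefficient of variation was 15.8%. CPM are TMM-scaled counts, and RPKM divide them by exonic bases on the main chromosome, since Eno1 and Hk2 are also listed on extra contigs. These bases pool all exons annotated for a gene, so RPKM and shares per exonic base depend on the annotated lengths. Calls of members come from that fit over all genes and are given as a description, with no p-value. With 2 libraries against 2, an exact permutation test cannot go below p = 0.333. Values per library were given for called members and, for each role, for the member with the largest fold and the most abundant per length. Bnip3, Ldha, Tpi1, P4ha1, Pgk1, Slc16a1, Epas1, Pfkm, Pfkfb4, Car9, Adm, Bhlhe40 and Ccng2 were added after their values were seen. Called pathway genes were all named. Alternatives were other scalings (RLE, library totals, TMM without the members), no filter, a mean of at least 1 CPM, DESeq2 1.42.0, the study's criteria in DESeq2 (p up to 0.05 without adjustment, with a change of 1 or more on the log2 scale), limma-voom (limma 3.58.1), halved counts, a replicate block and leaving out each library. All rows name a gene, and the table held 0 further per-sample columns.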

Additional observations from a re-analysis of the deposited data

How the results depend on the processing

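Calls of members are listed as a description, since the list was chosen on this contrast. The count of members called higher was 3 in all but the fit without shYthdf2 replicate 2, where Ddit4 made it 4. The count called lower, 5, was less stable. It was 16 with no filter on low counts, 11 with DESeq2 and 3 with limma-voom, and from 2 to 16 when single libraries were left out: 16 without shScramble replicate 1, 2 without shScramble replicate 2, 14 without shYthdf2 replicate 1 and 15 without shYthdf2 replicate 2. Over all genes, 445 higher and 273 lower, the counts were 1095 and 843 with no filter and 800 and 602 with DESeq2, and from 534 to 1175 and from 300 to 1113 without single libraries. For other glycolysis and pyruvate genes the count called higher was 4 with no filter, 4 with DESeq2, 1 by the study's criteria and 1 with limma-voom, and 2 to 3 without single libraries, and the count called lower was 1 to 4 without single libraries. For other HIF pathway genes the count called higher was 5 with no filter and 4 with DESeq2, and 1 to 5 without single libraries. The count called lower was 10 with no filter, 3 with DESeq2, 5 by the study's criteria and 0 with limma-voom, and 0 to 12 without single libraries. At an unadjusted p under 0.05, limma-voom had 10 lower genes of that list, edgeR without shScramble replicate 2, the other setting with 0, had 1, and edgeR with all libraries had 11. Fits without a library tested 19408 to 19558 genes, since the filter then asks for fewer libraries. The cause of these shifts was not tested.

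With a replicate block, 3 members were called higher and 17 lower, 1851 and 1674 of all genes, 6 and 8 of the other glycolysis and pyruvate genes and 6 and 12 of the other HIF pathway genes. With only 2 pairs the numbers were not treated as pairing the samples. The difference between replicates 1 and 2 correlated at 0.36 between the groups over 14441 genes and at 0.05 over the 41 members. RLE, library totals, TMM without the members, a mean of at least 1 CPM and halved counts left all counts within 1.5 times. Low counts limit Eno2, Ndufa4l2, Ankrd37, Car9 and Adm.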
